A study of Mus musculus with 4 samples.

Results

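The glucocorticoid receptor gene and its classic targets are 8 genes: the receptor gene Nr3c1, and Fkbp5, Tsc22d3, Sgk1, Dusp1, Zbtb16, Hsd11b1 and Errfi1, which glucocorticoids are known to induce in many cell types. They were chosen by symbol, as 8 of the 21829 protein-coding genes of GENCODE M21, and each locus was taken as the gene body with 50 kb on either side. The data were DNase-seq of 3T3-L1, an immortalized mouse fibroblast line that can be turned into fat cells in culture and that the labels give as strain C57BL/6J. DNase I cuts DNA that is free of nucleosomes, so its cuts mark open chromatin. Each of 2 biosamples gave 2 technical libraries, 4 in all, and the labels name no hormone, treatment or stage of differentiation. For each biosample there is 1 deposited list of peaks (scored windows 150 bp wide) and 1 of hotspots (wider open regions), in mm10 coordinates. The labels number the biosamples as biological replicates 1 and 2, and with 1 list for each, and scores that cannot be compared between lists, the values of both are given side by side in place of a mean and its spread.

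Glucocorticoids pass the cell membrane and bind the receptor in the cytoplasm, where heat-shock proteins hold it ready. The bound receptor moves to the nucleus and binds the glucocorticoid response element, a pair of inverted half-sites, mostly far from promoters and mostly where chromatin is already open. In preadipocytes such as 3T3-L1 a synthetic glucocorticoid is a standard part of the mixture that starts fat cell formation. Culture serum also carries glucocorticoids, and whether the receptor was active in these cells was not measured.

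The 8 loci held 344 of the 298793 peaks of biosample 1 and 133 of the 97430 peaks of biosample 2. Within 1 kb of a member's start site lay 34 of the 344 and 24 of the 133, and the other 310 and 109 were distal. Of the distal peaks of biosample 1, 129 lay in introns of the members and 123 between genes. The hotspots at the loci numbered 274 and 112. Scores are the authors' own values, were ranked only within a list, and are given with the percentile (the share of the list's peaks with a lower score, ties counted by their midpoint).

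Response element cores were found in distal peaks of 4 loci: Fkbp5, Zbtb16, Tsc22d3 and Sgk1. The core searched for was the half-sites GNACA and TGTNC 3 bases apart, on both strands, and it was present in 9 of the 344 biosample 1 peaks (2.62%, 1.38% to 4.90%, where ranges after a share are 95% Wilson intervals), against 0.284% of all peaks of that list. In biosample 2 it was present in 8 of 133 peaks (6.02%, 3.08% to 11.4%), against 0.252% of all peaks. All of these were distal, as were most peaks at the loci (310 of 344 and 109 of 133). Of the 9, 8 were open in both lists. Those 8 are shown because in each a core lay inside a peak of both lists. Cores in hotspots of both lists but outside any peak, at Sgk1 and Dusp1, are described with those genes. Capitals mark the core, and bases are from GRCm38.p6, which has the chromosome sequences of mm10.
Fkbp5, intron, 21.4 kb downstream of a start site, chr17:28420236-28420385, plus strand: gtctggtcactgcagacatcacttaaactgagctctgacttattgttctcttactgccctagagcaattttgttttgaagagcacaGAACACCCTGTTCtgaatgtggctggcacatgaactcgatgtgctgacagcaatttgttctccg
Fkbp5, past the 3′ end, chr17:28394256-28394405, plus strand: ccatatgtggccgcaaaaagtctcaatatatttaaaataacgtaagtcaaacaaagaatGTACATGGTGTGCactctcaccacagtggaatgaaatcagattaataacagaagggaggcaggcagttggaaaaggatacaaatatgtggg
Fkbp5, upstream, chr17:28523116-28523265, plus strand: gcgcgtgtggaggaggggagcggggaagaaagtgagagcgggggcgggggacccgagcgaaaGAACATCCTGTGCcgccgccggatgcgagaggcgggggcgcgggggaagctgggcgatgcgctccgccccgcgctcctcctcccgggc
Fkbp5, intron near the open promoter, chr17:28484916-28485065, plus strand: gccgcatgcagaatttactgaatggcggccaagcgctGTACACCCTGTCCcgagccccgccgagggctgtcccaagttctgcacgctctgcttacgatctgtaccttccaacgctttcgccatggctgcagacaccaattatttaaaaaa
Zbtb16, intron, first of the pair, chr9:48737596-48737745, plus strand: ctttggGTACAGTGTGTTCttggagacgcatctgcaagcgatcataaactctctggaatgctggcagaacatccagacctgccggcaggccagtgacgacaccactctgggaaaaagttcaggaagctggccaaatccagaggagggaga
Zbtb16, intron, second of the pair, chr9:48740156-48740305, plus strand: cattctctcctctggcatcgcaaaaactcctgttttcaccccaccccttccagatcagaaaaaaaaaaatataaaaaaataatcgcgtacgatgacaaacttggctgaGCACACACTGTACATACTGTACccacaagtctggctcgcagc
Tsc22d3, past the 3′ end, chrX:140505936-140506085, plus strand: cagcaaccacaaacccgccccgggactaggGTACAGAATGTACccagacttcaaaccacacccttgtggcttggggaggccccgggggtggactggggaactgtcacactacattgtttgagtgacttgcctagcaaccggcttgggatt
Sgk1, intron, chr10:21952656-21952805, plus strand: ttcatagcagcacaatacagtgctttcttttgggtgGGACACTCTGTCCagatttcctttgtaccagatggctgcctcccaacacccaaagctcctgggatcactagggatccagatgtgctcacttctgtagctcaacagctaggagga
The first Fkbp5 sequence holds the full palindrome, AGAACA and TGTTCT 3 bases apart, which only 0.00402% of all biosample 1 peaks hold (12 of 298212). The second Zbtb16 sequence holds 2 overlapping cores, which share a half-site. None of the 9 peaks with a core held a match of TGANTCA, the motif of AP-1 (the Fos and Jun dimer), or of TTGCNNAA, that of the C/EBP factors. Of all biosample 1 peaks 22.1% and 7.48% held one, and 9 peaks are too few to tell 0 from these shares.

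**Figure D1:**
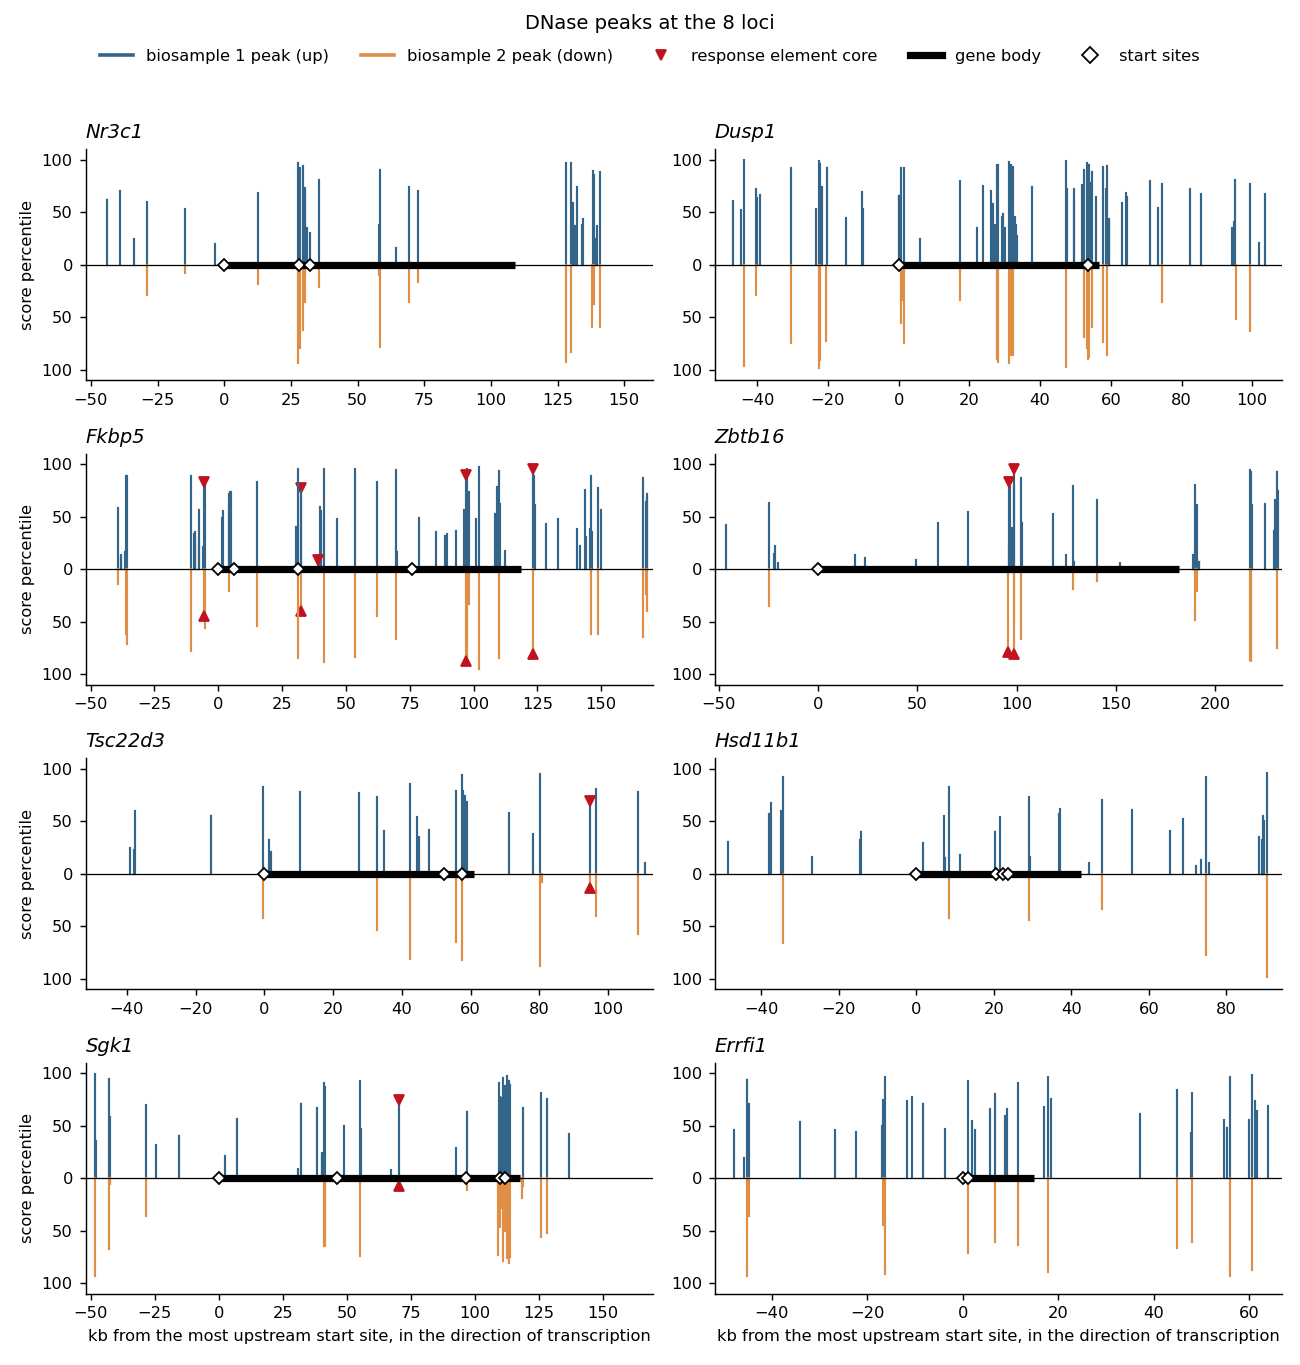
Peaks at the 8 loci, with distance from the most upstream start site in kb on the x axis, oriented by transcription, and the score percentile within its list on the y axis (biosample 1 upward, biosample 2 downward). Diamonds mark start sites, the thick bar the gene body and red triangles the 9 peaks of biosample 1 and 8 of biosample 2 with a response element core, 5 and 4 of them at Fkbp5.

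Nr3c1 encodes the glucocorticoid receptor. Its 9 start sites form 3 clusters along chromosome 18, and the middle cluster (39489283 to 39491301, 6 start sites) was the open promoter in both lists. Its strongest peak scored 140 in biosample 1 (percentile 97.2) and 76 in biosample 2 (percentile 93.5). That promoter lay in 1 hotspot of 3961 bp in biosample 1 and 3390 bp in biosample 2, with 6 and 5 peaks within 1 kb of its start sites. The most upstream start site, 28.1 kb away, had no peak within 1 kb in either list, and the most downstream cluster had 1 weak peak (score 50, percentile 30.6) in biosample 1 alone. The middle cluster was thus the only one of the receptor gene with a start-site peak in both lists. The strongest distal peaks of either list lay between genes past its 3′ end, at chr18:39391056-39391205 (140 in biosample 1, 74 in biosample 2) and chr18:39389476-39389625 (139 and 59). Another, in an intron at chr18:39460916-39461065, scored 125 and 53. No peak at Nr3c1 held a response element core, and the 2 cores in its locus DNA lay in neither a peak nor a hotspot.

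Fkbp5 encodes FKBP51, a co-chaperone that lowers the receptor's affinity for hormone and closes a feedback loop. One of its 4 start clusters, at 28486093 to 28486149 of chromosome 17, was open in both lists, with peaks scoring 136 (percentile 95.5) in biosample 1 and 61 (percentile 85.0) in biosample 2. It is also the cluster rich in CpG, with a ratio of observed to expected CpG of 1.01 over the surrounding 1000 bp, against 0.223 to 0.332 at the other clusters. Only 1 of the others had a start-site peak, at 959 bp in biosample 1 (score 95). Its locus held 72 peaks of biosample 1 and 25 of biosample 2, of which 35 and 12 were distal and within the gene. All 25 of biosample 2 met a biosample 1 peak. The strongest distal peaks of biosample 1 were intronic and without a core, at chr17:28415396-28415545 (140 and 80), chr17:28476016-28476165 (137 and 66) and chr17:28463896-28464045 (137 and 59). In biosample 2 the peak with the full palindrome (65) ranked above the last of these.

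The Fkbp5 core peaks ran from past the 3′ end to upstream of the gene. The intronic peak with the full palindrome scored 124 in biosample 1 (percentile 90.1) and 65 in biosample 2 (percentile 87.7). The peak past the 3′ end, between Fkbp5 and Tulp1, scored 135 (percentile 95.1) and 56 (percentile 80.9). Both were thus among the stronger peaks of each list. The upstream peak, 5667 bp from the first start site and 75.3% G and C, lies among start sites of long non-coding RNAs and scored 110 and 30. The peak centred 1102 bp into the gene from the open promoter scored 101 and 28. The remaining one, at chr17:28478216-28478365, was weak (36, percentile 9.11) and in biosample 1 alone. Among all 21829 genes, with the same flanks, 1441 (6.60%) had a biosample 1 peak with a core and 414 (1.90%) a biosample 2 peak. Of the 8 members 4 had one in each list. The windows of these 4 were 161 to 282 kb long, and the genes were not matched for window length. Fkbp5 was the only gene with 3 or more core peaks in biosample 2. In biosample 1 the other genes with 3 or more were Cdh18, with 3 over a window of 1025 kb, and Gm20388, with 9 over 4535 kb, against 5 over 218 kb at Fkbp5.

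Tsc22d3 encodes GILZ, a leucine zipper protein that carries part of the anti-inflammatory action of glucocorticoids. Of its 3 start sites on the X chromosome, the one for the short isoforms at 140543187 had a peak of score 133 (percentile 94.2) in biosample 1 and 57 (percentile 81.8) in biosample 2, 9 bp away. The most upstream start site, 57.5 kb from it, was open too, with scores of 110 and 29. At the start site between them the nearest peak of either list was 3413 bp away. The core peak lay 37.2 kb past the short-isoform start, beyond the 3′ end of the gene, and was moderate in biosample 1 (88, percentile 69.2) and weak in biosample 2 (17, percentile 13.9). The strongest distal peak, chrX:140520336-140520485 (134 and 65), lay in the same flank and held no core.

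Sgk1 encodes a kinase that stimulates sodium channels and other transporters. Its 7 start sites form 5 clusters on chromosome 10, of which the 3 downstream ones were open in both lists and the 2 upstream ones in neither. The strongest start-site peak of biosample 1 scored 141 (percentile 97.6), and 51 in biosample 2. That of biosample 2, at another site, scored 56 (percentile 80.9), and 130 in biosample 1. The 2 most downstream clusters lay in 1 hotspot of 5357 bp in biosample 1 and 4443 bp in biosample 2, wider than that of any other member. Within 1 kb of its start sites lay 8 peaks of biosample 1 and 10 of biosample 2, so the shorter list had more. Of all 21829 protein-coding genes 802 (3.67%) showed that order, and 8140 of the 21829 could not, having no start-site peak in either list. At this promoter 3 of the biosample 2 peaks met no biosample 1 peak, but all 3 fell inside the biosample 1 hotspot.

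The Sgk1 promoter holds a full palindrome that neither list marks with a peak. It lies at 21993702 to 21993714, 182 bp upstream of one annotated start site and 958 bp upstream of the next in RefSeq, inside the hotspots of both lists. The nearest peak was 182 bp away in biosample 1 and 122 bp away in biosample 2. The RefSeq promoter window (GRCm38.p6) is shown because it alone held a core among the windows of the 6 members matched in that table, as 156 of 32851 such windows (0.475%) do.
Sgk1 promoter, chr10:21993640-21993939, plus strand: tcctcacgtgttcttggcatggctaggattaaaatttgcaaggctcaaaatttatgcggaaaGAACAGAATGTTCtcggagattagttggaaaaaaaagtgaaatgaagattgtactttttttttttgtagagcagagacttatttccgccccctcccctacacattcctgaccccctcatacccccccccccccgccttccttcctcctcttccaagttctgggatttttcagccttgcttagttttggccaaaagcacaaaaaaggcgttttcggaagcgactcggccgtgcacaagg
The intronic core peak of Sgk1 was weaker in rank, at 96 (percentile 74.5) and 14 (percentile 7.36). The strongest distal peak was 48.3 kb upstream of the first start site, at chr10:21833836-21833985 (145 and 76), without a core.

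Dusp1 encodes a phosphatase that switches off the p38 and JNK kinases. Its main promoter on chromosome 17 (start sites 26508472 and 26508519) had peaks scoring 139 (percentile 96.8) in biosample 1 and, at another site, 68 (percentile 89.5) in biosample 2. The start site of a long isoform 53.6 kb upstream was open too (128 and 36), but lies 583 bp from a start site of Ergic1, so those peaks cannot be assigned to Dusp1. The 2 strongest distal peaks of biosample 1 over all 8 loci lay here. Those at chr17:26605716-26605865 (147 and 85) and chr17:26584676-26584825 (146 and 91) are in introns of Ergic1, and that at chr17:26514796-26514945 (145 and 86) is 6.35 kb upstream of the main promoter. No Dusp1 peak held a core. A core 974 bp upstream of the main promoter lay in hotspots of both lists, 77 bp from the nearest peak in each, and another, in an Ergic1 intron, lay 20 bp from a peak of biosample 1 and 40 bp from one of biosample 2. One more, in a Dusp1 intron, lay 2 bp from a biosample 1 peak.

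Zbtb16 encodes PLZF, a zinc-finger repressor that glucocorticoids induce strongly in several cell types. Its promoter on chromosome 9 was closed in both lists: neither a peak nor a hotspot lay within 1 kb of its 2 start sites, and the nearest peak was 18380 bp away in biosample 1 and 24394 bp away in biosample 2. The closed promoter is rich in G and C (68.5%, ratio of observed to expected CpG 0.677). Its introns were not closed. The locus held 38 and 12 peaks, all 12 shared, and its strongest peak in biosample 1 was the first of the core pair, with 137 (percentile 96.0), which scored 56 (percentile 80.9) in biosample 2. The second peak of the pair scored 111 (percentile 83.4) and 54 (percentile 79.1), and both lie 95.7 to 98.3 kb inside the gene. At least 2 core peaks were found at 85 genes in biosample 1 and at 16 genes in biosample 2, not matched for window length. A pair of peaks in the flank past the 3′ end towards Nnmt, at chr9:48618716-48618865 (134 and 63) and chr9:48618276-48618425 (130 and 65), came next in biosample 1 and ahead of the core pair in biosample 2.

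Hsd11b1 encodes the enzyme that turns inactive 11-keto steroids back into active glucocorticoid inside cells, and its level rises during fat cell formation. Its start-site peaks were in biosample 1 alone, with a top score of 69 (percentile 54.2), and the nearest biosample 2 peak was 5245 bp from any start site. Of the 33 peaks of biosample 1 at this locus only 6 (18.2%, 8.61% to 34.4%) met a biosample 2 peak, fewer than at any other member, and none of the 6 was at a start site. The strongest sites there lie at or in neighbouring genes: chr1:193173456-193173605 (138 and 93) is the promoter of A130010J15Rik, and chr1:193298296-193298445 (129 and 43) is in an intron of Lamb3. Another, chr1:193189396-193189545 (128 and 52), is in an intron of Traf3ip3. None of its peaks held a core.

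Errfi1 encodes MIG6, an inhibitor of the EGF receptor. The start site at 150855073 on chromosome 4 had peaks scoring 129 (percentile 92.4) in biosample 1 and 47 (percentile 71.6) in biosample 2, and its surroundings had a CpG ratio of 1.00. The other start site, 1.15 kb upstream, lay just outside the limit, with the nearest peak at 1037 bp and 1057 bp, though a hotspot reached within 1 kb of it in both lists. Of the 3 strongest distal peaks of biosample 1, 2 are the promoters of Tnfrsf9 at chr4:150914456-150914605 (142 and 64) and Park7 at chr4:150909876-150910025 (139 and 75). The other, at chr4:150871756-150871905 (139 and 68), lies between genes 16.8 kb past the open start site. Upstream of Errfi1, peaks at chr4:150837536-150837685 (138 and 71) and chr4:150808556-150808705 (132 and 75) followed in biosample 1 and stood above the Tnfrsf9 promoter in biosample 2; this pair was picked after its values were seen. No Errfi1 peak held a core, and the 1 core in its intron lay 196 bp from the nearest peak of each list.

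Read by gene, 6 of the 8 members had a start-site peak in both lists, Hsd11b1 had one in biosample 1 alone and Zbtb16 had none. Of all protein-coding genes 51.8% had one in both lists, 62.6% in biosample 1 and 51.9% in biosample 2, so the members' 6, 7 and 6 stand near that background for so few genes (75%, 40.9% to 92.8%, for both lists). The members have 2 to 9 start sites each, and of the genes with at least 2 the share with a peak in both lists was 59.1%. Among genes with a start-site peak, the open promoters were of ordinary strength: in biosample 1 they ranked from percentile 11.6 (Hsd11b1) to 73.4 (Sgk1), and in biosample 2 from 26.3 (Errfi1) to 71.5 (Nr3c1). The order of the 6 by mean percentile over both lists was Nr3c1, Dusp1, Fkbp5, Sgk1, Tsc22d3 and Errfi1, and with 1 list per biosample the spread of these levels is unknown.

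**Figure D2:**
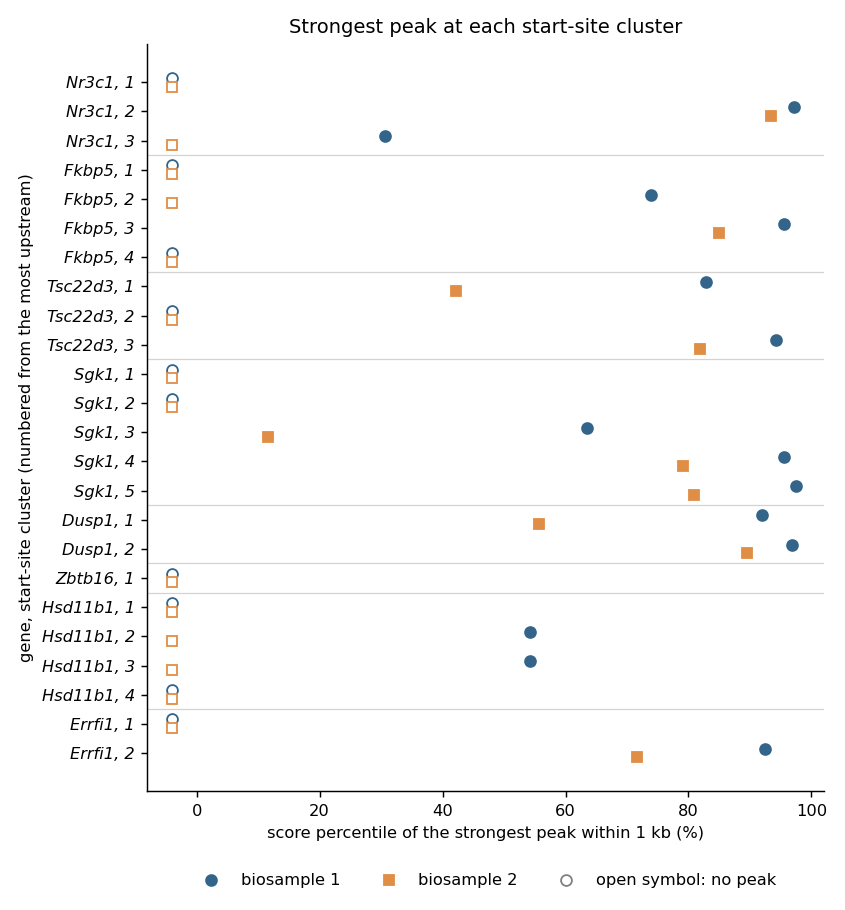
Score percentile within its list of the strongest peak within 1 kb of each start-site cluster (x axis, %), for the clusters of the 8 genes numbered from the most upstream (y axis), with circles for biosample 1 and squares for biosample 2. Open symbols at the left mark clusters without a peak, among them the only cluster of Zbtb16 and, in biosample 2, all 4 clusters of Hsd11b1.

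The loci differed in how densely they were open. The windows take in parts of neighbouring genes, and peaks there were counted too, here and over all genes. At Dusp1 these included peaks in introns and at start sites of Ergic1. Dusp1 had 44.1 peaks per 100 kb in biosample 1 and 16.6 in biosample 2, at density percentiles of 95.7 and 95.6 among all genes. Fkbp5 (33.0 and 11.5) and Errfi1 (32.2 and 10.4) came next in biosample 1, at density percentiles of 86.6 and 85.5. The median gene had 18.3 and 6.33 peaks per 100 kb. Nr3c1 and Sgk1 lay below that median in biosample 1 (15.8 and 16.1) and above it in biosample 2 (8.62 and 11.0), and Zbtb16 lay below it in both (13.5 and 4.26). Hsd11b1 changed the other way, from 23.2 in biosample 1 to 4.21 in biosample 2, and Tsc22d3 stayed near the median at 16.8 and 6.21.

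**Figure D3:**
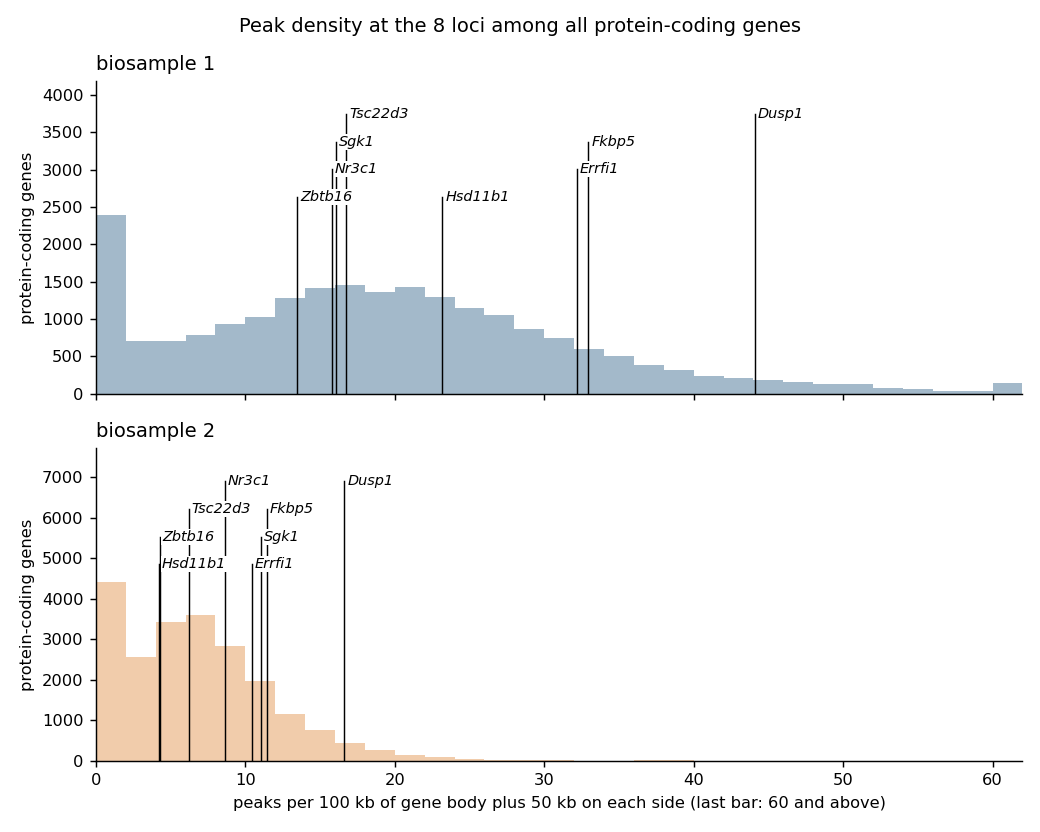
Number of protein-coding genes (y axis) by peaks per 100 kb of gene body with 50 kb on either side (x axis), for the list of biosample 1 (top) and biosample 2 (bottom). Lines mark the 8 members, with Dusp1 at 44.1 and 16.6 peaks per 100 kb, on the far right in both.

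The sites of the shorter list were nearly all in the longer one. At the loci 127 of the 133 biosample 2 peaks (95.5%, 90.5% to 97.9%) met a biosample 1 peak by at least 1 bp, as did 93.5% of all peaks of that list. The 6 that did not were 3 at the Sgk1 promoter, 1 at a Dusp1 start site and 1 distal peak each at Sgk1 and Tsc22d3, and all 6 fell inside a biosample 1 hotspot. Of the 344 biosample 1 peaks, 128 (37.2%, 32.3% to 42.4%) met a biosample 2 peak, against 30.4% of all peaks of that list. With the biosample 1 list shortened to its strongest peaks, as many as in biosample 2, the share at the loci was 74.7% (115 of 154), against 76.5% of that shortened list. With the full biosample 1 list the share at the loci was 58.8% at start sites (20 of 34) and 34.8% at distal sites (108 of 310). By gene it was 54.5% at Nr3c1 and 54.3% at Sgk1, and from 31.6% to 36.2% at the other members except Hsd11b1. Sharing at the loci followed rank, since all 58 biosample 1 peaks at percentile 90 or above and 2 of the 119 below percentile 50 were shared. Over the 127 shared peaks of biosample 2 the percentiles in the lists had a Spearman rho of 0.92. This is across peaks, which are not independent replicates, and both lists depend on the same DNA. The shares by class and by rank and the rho were not computed over all peaks. Whether these loci differ from other loci in them was not tested.

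**Figure D4:**
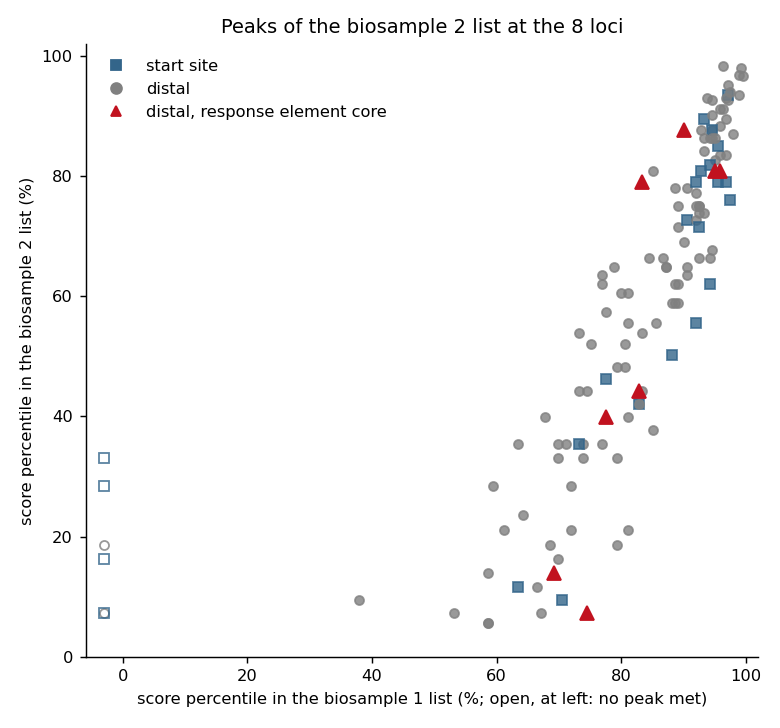
Score percentile in the biosample 2 list (y axis, %) against that of the strongest biosample 1 peak met (x axis, %), for the 133 biosample 2 peaks at the 8 loci. The 6 open symbols at the left met no biosample 1 peak, and the 8 red triangles are peaks with a response element core, spread over weak and strong ranks.

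Most cores in the DNA of these loci were closed. The locus DNA, 1.502 Mb, holds 45 core matches, or 29.96 per Mb against 16.97 per Mb over all chromosomes. Of the 45, 10 (22.2%) lay inside biosample 1 peaks, which cover 3.44% of this DNA, and 9 (20%) lay inside biosample 2 peaks, which cover 1.33%. Over all chromosomes 1.87% of 44933 matches lay in biosample 1 peaks and 0.541% in biosample 2 peaks, close to the 1.64% and 0.535% of DNA that those peaks cover. Hotspots held 16 of the 45 in biosample 1 and 12 in biosample 2, against 4.57% and 1.21% of all matches. The members differ among themselves: Fkbp5 had 14 matches with 5 in biosample 1 peaks, Zbtb16 had 8 with 3, Tsc22d3 had 3 with 1 and Sgk1 had 6 with 1. Dusp1 had 6, Hsd11b1 and Errfi1 3 each and Nr3c1 2, with none in a peak. Fkbp5 weighs heavily in the totals, and without it 4 of 272 biosample 1 peaks (1.47%, 0.573% to 3.72%) and 4 of 108 biosample 2 peaks (3.70%, 1.45% to 9.14%) held a core. A further full palindrome at Fkbp5, 704 bp upstream of a start site without a peak, was in neither peak nor hotspot. At start sites 0 of 34 and 0 of 24 peaks held a core, which allows shares of up to 8.82% and 12.5%. Those limits lie above the shares of distal peaks with a core, 2.90% (9 of 310) and 7.34% (8 of 109). No difference between start-site and distal peaks was therefore detectable. These zeros depend on the 1 kb limit, since the Fkbp5 core peak near the open promoter lay 1028 bp from a start site in both lists.

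The motifs of AP-1 and C/EBP were not detectably more or less common at these loci than in all peaks. AP-1 matches were in 74 of 344 peaks of biosample 1 (21.5%, 17.5% to 26.2%) and 29 of 133 of biosample 2 (21.8%, 15.6% to 29.6%), against 22.1% and 25.8% of all peaks. C/EBP matches were in 20 (5.81%, 3.80% to 8.81%) and 9 (6.77%, 3.60% to 12.4%), against 7.48% and 7.62%. In each case the interval at the loci includes the share of all peaks, so no difference was detectable at this number of peaks. AP-1 matches were in 70 of 310 distal peaks (22.6%, 18.3% to 27.6%) and 4 of 34 start-site peaks (11.8%, 4.67% to 26.6%) of biosample 1, with intervals that overlap. A match is a run of letters and does not show that a factor was bound.

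**Figure D5:**
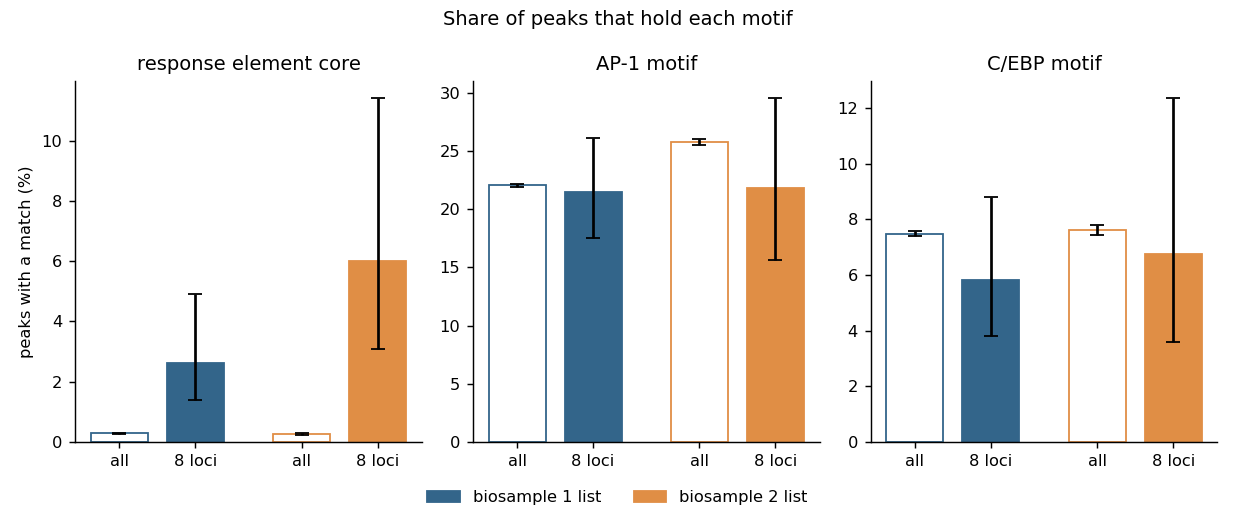
Share of peaks with a motif match (y axis, %) among all peaks of a list (white bars) and among the peaks at the 8 loci (filled bars), for the response element core, AP-1 and C/EBP, with 95% Wilson intervals that cover counting error only. The core stands at 2.62% and 6.02% at the loci against 0.284% and 0.252% of all peaks, while the other motifs overlap their background.

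Most genes for proteins that act with the receptor had open promoters. The 20 partner genes were those of chaperones, coactivators, corepressors and the related receptor, with the steroid enzyme gene Hsd11b2 and H6pd. Of the 20, 19 had a start-site peak in both lists (95%, 76.4% to 99.1%), against 51.8% of all protein-coding genes. The highest were Stip1, a co-chaperone that links the heat-shock proteins, with scores of 148 and 117, and Med1, a Mediator subunit, with 149 and 87. Nr3c2, the mineralocorticoid receptor, which binds the same hormones, followed with 148 and 84, and the chaperone Hspa8 with 145 and 82. The exception was Hsd11b2, the enzyme that inactivates glucocorticoid in kidney, without a peak in either list.

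Of 22 further genes known to be induced by glucocorticoids, 14 had a start-site peak in both lists (63.6%, 42.9% to 80.3%). That interval includes the 51.8% of all protein-coding genes, so the share is near the background. The highest were Per1, a clock gene (147 and 100), the transcription factor Klf9 (148 and 98), the metallothionein Mt1 (146 and 90) and the receptor kinase Mertk (144 and 81). Klf15, Pdk4, Tgm2 and Sult1a1 had one in biosample 1 alone, with top scores of 63, 79, 84 and 34. None was found at Cdkn1c, Tat, Pck1 and Lcn2. Like Zbtb16, these 4 genes had no open promoter in either list.

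The labelled fibroblast line was checked against marker genes. All 8 fibroblast and mesenchymal markers had a start-site peak in both lists. Of 5 markers of mature fat cells Plin1 had one in both, Cidec one in biosample 1 alone, and Adipoq, Retn and Cfd none. Of 8 markers of other cell types only Pecam1, of endothelium, had one.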

How the data were processed

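The members and gene lists were chosen with earlier results of these data known. Per the labels, the authors made 1 alignment in mm10 for each biosample from its 2 libraries, on which hotspots and peaks were called. The aligner, caller and versions are not given in the sources used here, and depth is unknown because no read counts were given. The deposited peak score is a whole number up to 150 whose definition is not given, with a median of 65 in biosample 1 and 33 in biosample 2. Deposited hotspots carry a −log10 q value, from 1.30 to a cap of 100. Differences between biosamples cannot be told apart from differences in depth or from technical spread, since the labels number them as biological replicates but do not state how they were grown or divided.

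Genes and start sites of protein-coding transcripts came from GENCODE M21 (chromosomes 1 to 19, X and Y). Python 3.11.15 with numpy 2.4.6 and scipy 1.17.1 computed overlaps (at least 1 bp), percentiles and motif matches, after a check on simulated data. Intervals are 95% Wilson intervals, and the upper limit for a count of 0 rests on 3 counts. Both cover counting error only. No test was run, since each biosample has 1 list. All 8 members, the 3 highest-scoring distal peaks of each in biosample 1, every core peak, and from each further gene list the 4 highest by mean percentile, those in 1 list alone and those in none were to be named. Alternatives changed the flank, the start-site window, the score limit, the overlap and the motif.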

Additional observations from a re-analysis of the deposited data

How the results depend on the processing

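With a flank of 100 kb the loci held 525 and 204 peaks in biosample 1 and 2, of which 198 and 195 were shared, and in the gene bodies alone 165 and 69, of which 66 and 65 were shared. The stronger 50% of each list held 225 and 85 peaks there, with 85 shared from either side. With the biosample 1 list shortened to the length of the other, its peaks at the loci numbered 154, of which 115 (74.7%) were shared, against 76.5% of that shortened list, and 115 of the 133 biosample 2 peaks (86.5%) were shared, against 77.2% of all. Members with a start-site peak in both lists fell from 6 to 2 (Dusp1 and Tsc22d3) when only the most upstream start site was used, because Nr3c1, Fkbp5, Sgk1 and Errfi1 were open at later ones. The 6 were unchanged with windows of 500 bp and 2 kb, the stronger 50% of each list, or hotspots in place of peaks. The counts of further induced and of partner genes ranged from 13 to 18 and from 18 to 19 over the alternatives.

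Peaks of biosample 1 with a response element core numbered 9 of 344. The full palindrome left 1, and a core with 1 base free gave 34 (9.88%, against 5.92% of all peaks), so the contrast with all peaks was smaller for the looser motif. A match anywhere in the peak's hotspot gave 36 (10.47%, against 1.32%). These 36 are peaks and not separate cores, since 1 core counts for every peak of its hotspot. Only 16 cores lay in biosample 1 hotspots at the loci. Without the Fkbp5 locus, an alternative chosen after seeing the data, 4 were left. The stronger 50% of the list gave 8, and windows of 250 bp gave 11 (3.20%, against 0.480%).

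Leaving out a library was not possible: each list pools its 2 libraries. No paired analysis was possible because the results come from no test.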
